A study of Mus musculus with 41 samples.

Results

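The genes described here are 10 inducible inhibitors of the RAS–ERK pathway: the phosphatases Dusp1, Dusp2, Dusp4, Dusp5 and Dusp6, the Sprouty genes Spry1, Spry2 and Spry4, and the SPRED genes Spred1 and Spred2. They were picked by gene symbol, by a rule that uses no measured value but was written with earlier results of these data known, and are 10 of the 55536 gene identifiers in each count table. The study asked which genes respond to RHOX10, a homeobox transcription factor encoded on the X chromosome, in mouse spermatogonial cells. It used RNA-seq of sorted testis cells labelled Rhox10-null or wild-type, iSLAM-seq and CUT&Tag. iSLAM-seq was 3′ end sequencing from cells with inducible RHOX10, by a protocol that labels new RNA. CUT&Tag was tagging of DNA where an antibody binds. The labels give the strain C57BL/6 for every sample.

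RNA-seq had 4 wild-type libraries and 4 that the labels call Rhox10-null. All came from testis cells sorted for an OCT4-eGFP reporter, with testes of 3 animals pooled per library. The age of these animals is not given in the labels. iSLAM-seq used germline stem (GS) cells, which are cultured spermatogonial cells, here derived from neonatal testes. In all of them, both vectors included, endogenous Rhox10 was knocked down with an shRNA lentivirus and the cells were sorted for GFP. They then carried either a Rhox10-ERT2-mCherry fusion (called Rhox10 below), which responds to 4-hydroxytamoxifen, or the ERT2-mCherry empty vector (Ctrl). Each vector had 2 libraries at each of 6 times, 0, 0.5, 1, 2, 4 and 8 h. The labels do not say whether Ctrl cells received 4-hydroxytamoxifen, and whether unconverted reads entered the deposited counts is not given in the sources used here. CUT&Tag peaks came from knocked-down GS cells with HA-tagged Rhox10.

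Growth factors such as GDNF and FGF2, which sustain spermatogonial stem cells, act through receptor tyrosine kinases, RAS and the kinases RAF, MEK and ERK. Active ERK induces transcription of its own inhibitors. DUSP phosphatases remove the activating phosphates from ERK and related kinases, Sprouty proteins block signalling between receptor and RAF, and SPRED proteins bring the RAS-inactivating protein neurofibromin to the membrane. The mRNAs of these genes are widely read as a gauge of ERK output, and several of them are short-lived.

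Libraries were checked before the members were compared. In iSLAM-seq, Rhox10 was at 34.0 to 46.7 CPM (counts scaled to library size) in the libraries with the fusion and at 0.202 to 2.42 CPM in Ctrl. The wild-type RNA-seq libraries averaged 0.810 ± 0.522 CPM of Rhox10 (SD, n = 4), and those labelled null 0.920 ± 0.346 (n = 4; two-sided exact permutation test, p = 0.657, smallest possible 0.0286), so these counts do not check the genotype labels. Totals were 9419615 to 12645845 counts per iSLAM-seq library and 6602089 to 8278887 per RNA-seq library, of which the single gene Gm42418 took 51.0% to 59.4% in RNA-seq. In iSLAM-seq 1 library stood apart: the 2 Ctrl libraries of 0.5 h differed with a chi-square of 26.64 per degree of freedom, against at most 4.57 in the other iSLAM-seq pairs. Replicate 2 of that pair was low for several members (Dusp6 at 132 CPM against 374 in replicate 1), and calls that change without it are given both ways. Germ cell markers (8 genes) summed to 1510 to 2270 CPM in Ctrl and 1670 to 1940 CPM in Rhox10 libraries, and peritubular and stromal markers (6 genes) to 883 to 1460 and 1090 to 1790 CPM. Of the 8 germ cell markers 3 were already called lower with the fusion at 0 h (median log2 -0.2, 4.32% of all genes lower). At 8 h 5 were called lower (median -0.34, 8.79% of all genes), and averaged over 0.5 to 8 h 5 were (median -0.37, 18.4%). The change of this difference from 0 h was called for 0 of the 8 by the edgeR F-test described below and for 1 by DESeq2. The single contrast of 8 h against 0 h called 1 lower. Endothelial markers (4 genes) summed to 31.6 to 46.4 CPM in Ctrl and 20.3 to 31.3 CPM in Rhox10 and did not overlap. The part of such cells in the results was not tested, and in bulk RNA fewer cells of a type and less RNA per cell cannot be told apart. No pair of replicates agreed within sampling noise, and p-values measure the spread between these samples.

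The sequences before the start sites are shown for the members whose time course differed between the vectors (Dusp1, Dusp2, Dusp5, Spry2) and for those with a RHOX10 peak over the start site (Dusp1, Dusp6) or upstream of it (Spred1). They are 200-base windows of GRCm38, read 5′ to 3′ on the strand of the gene. Capitals mark matches, on either strand, to 1 of 7 motifs searched: the homeodomain core TAAT, the cAMP response element TGACGTCA and its shorter core TGACG, the ETS core CCGGAAGT, the AP-1 motif TGAGTCA, the E-box CACGTG and the CArG box bound by serum response factor. TGACG overlaps TGACGTCA on both strands.
Dusp1, centre of its RHOX10 peak, chr17:26508560-26508759, minus strand: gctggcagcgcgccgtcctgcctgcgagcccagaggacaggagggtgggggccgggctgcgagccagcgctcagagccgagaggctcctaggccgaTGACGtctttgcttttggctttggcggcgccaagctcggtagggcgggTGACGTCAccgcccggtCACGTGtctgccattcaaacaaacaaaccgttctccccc
Dusp2, upstream of the start site, chr2:127335959-127336158, plus strand: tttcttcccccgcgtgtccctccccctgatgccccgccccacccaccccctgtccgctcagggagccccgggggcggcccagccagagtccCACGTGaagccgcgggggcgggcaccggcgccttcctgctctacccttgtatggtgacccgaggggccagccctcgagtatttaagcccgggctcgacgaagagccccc
Dusp5, upstream of the start site, chr19:53528909-53529108, plus strand: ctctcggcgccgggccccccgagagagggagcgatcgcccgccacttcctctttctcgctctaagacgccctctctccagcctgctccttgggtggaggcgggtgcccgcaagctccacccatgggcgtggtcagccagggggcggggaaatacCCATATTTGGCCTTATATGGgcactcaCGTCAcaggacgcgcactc
Spry2, upstream of the start site, chr14:105896820-105897019, minus strand: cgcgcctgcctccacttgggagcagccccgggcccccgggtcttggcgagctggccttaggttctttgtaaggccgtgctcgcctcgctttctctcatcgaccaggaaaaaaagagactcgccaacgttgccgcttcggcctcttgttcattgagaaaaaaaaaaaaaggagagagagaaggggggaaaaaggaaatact
Dusp6, upstream of the start site and inside its RHOX10 peak, chr10:99263031-99263230, plus strand: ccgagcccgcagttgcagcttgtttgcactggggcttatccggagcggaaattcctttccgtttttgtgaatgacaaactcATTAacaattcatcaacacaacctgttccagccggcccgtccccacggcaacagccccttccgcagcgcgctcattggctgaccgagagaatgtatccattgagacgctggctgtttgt
Spred1, centre of its RHOX10 peak, chr2:117120526-117120725, plus strand: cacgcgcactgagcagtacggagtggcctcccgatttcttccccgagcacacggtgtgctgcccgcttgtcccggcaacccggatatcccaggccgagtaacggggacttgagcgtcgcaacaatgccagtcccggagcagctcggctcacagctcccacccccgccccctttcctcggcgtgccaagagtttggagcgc

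The Dusp1 window held a full cAMP response element, found in 1.85% of the 5143 peak centres of the same length, along with a further TGACG (23.0% of peak centres) and an E-box (6.9%). The Dusp5 window held 2 adjoining CArG boxes, a motif found in 1.14% of 27025 upstream windows, and 1 TGACG (15.8%). Dusp2 held an E-box, which 5.28% of upstream windows hold, and Dusp6 a TAAT, which 47.3% hold. The Spry2 window and the Spred1 peak centre held none of the motifs searched. These matches describe letters in these windows and were not tested for binding.

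In both vectors Dusp2, Dusp5 and Spry2 rose over the first hours, and Dusp1 fell; with the fusion, Dusp2, Dusp5 and Spry2 then dropped below their starting level by 8 h, while Ctrl kept them above it. A test of whether the difference between the vectors changed from 0 h, over all 5 later times together, called Dusp1, Dusp2, Dusp5 and Spry2, which is 4 of 10 members against 2.39% of the 20642 genes tested (edgeR quasi-likelihood F-test, Benjamini-Hochberg adjusted p under 0.05, the rule for every call below). The difference moved down from 0 to 8 h for the same 4 members, against 1.7% of all genes, by 1.24 to 2.06 on the log2 scale. The change was called at 4 h for Dusp1 and Dusp2 (0.46% of all genes) and at 2 h for Dusp1 (0.0436%). Without Ctrl replicate 2 of 0.5 h, the F-test called Dusp4 and Dusp6 too, and 7.01% of all genes; the difference then moved down for Dusp6 at 1, 4 and 8 h and for Dusp5 at 4 h as well. In that fit, calls of a downward move over all genes rose at these times too. With all libraries, the median change from 0 to 8 h was -0.53 over the 10 members and -0.02 over all genes tested.

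**Figure D1:**
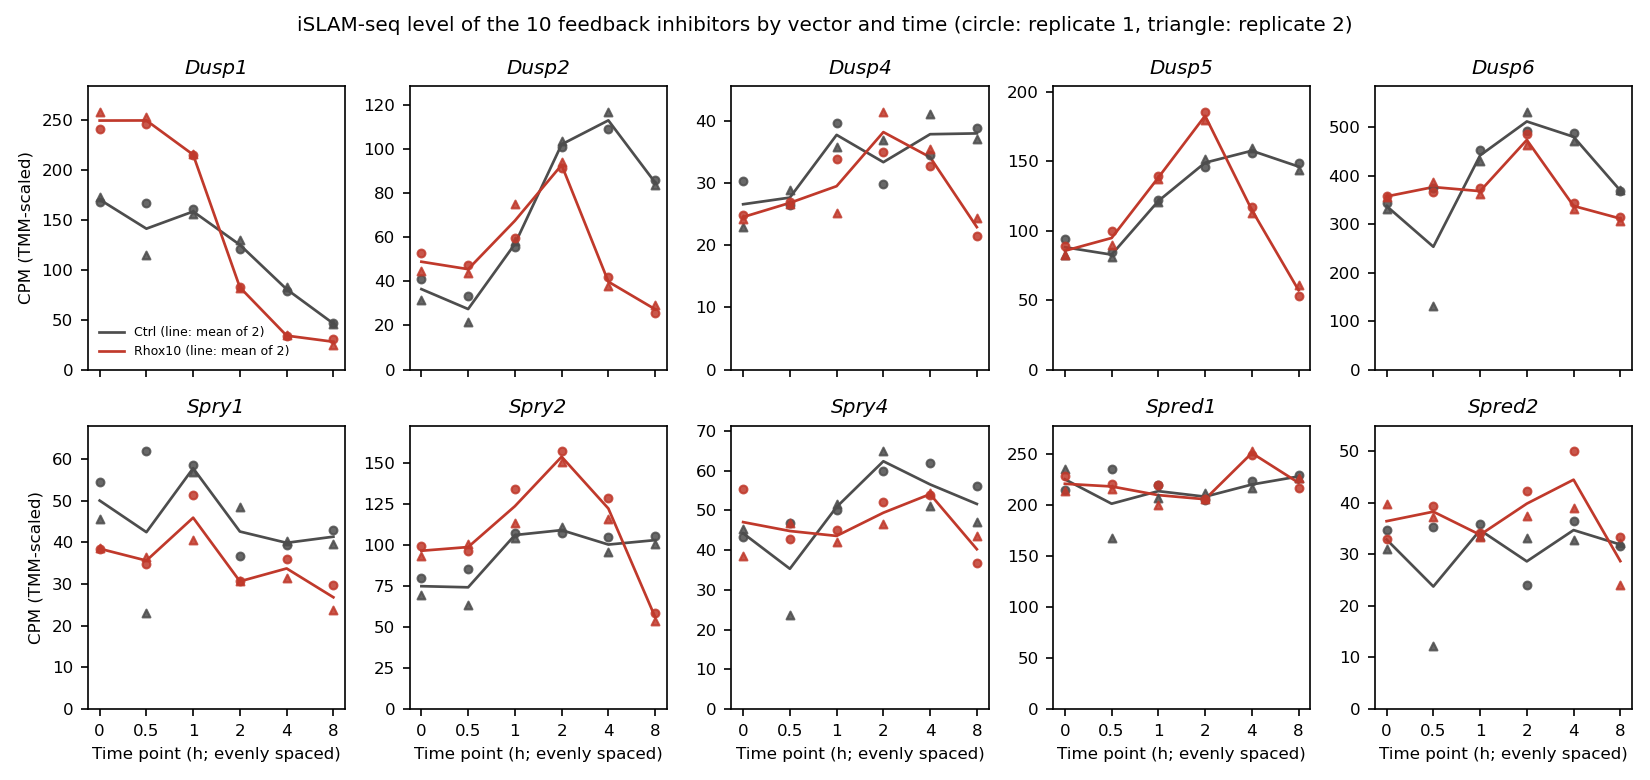
TMM-scaled CPM (vertical axis, from 0) of the 10 members at 6 times in hours (horizontal axis, evenly spaced); circles and triangles are replicates 1 and 2, lines the means of 2, grey Ctrl and red Rhox10. With the fusion Dusp2, Dusp5 and Spry2 peaked at 2 h and were lowest at 8 h, and the low triangle at 0.5 h in the Dusp6 panel is the Ctrl library that stood apart.

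Dusp1 encodes an immediate-early nuclear phosphatase that acts on p38, JNK and ERK (GRCm38 chromosome 17, 26505590 to 26562128, minus strand). In Ctrl the pair of libraries read 168 and 173 CPM (0 h), 167 and 115 (0.5 h), 161 and 156 (1 h), 120.3 and 129 (2 h), 78.6 and 82.3 (4 h), then 47.0 and 45.2 (8 h). In Rhox10 the pair of libraries read 241 and 258 CPM (0 h), 246 and 253 (0.5 h), 215 and 216 (1 h), 82.6 and 82.0 (2 h), 33.3 and 34.7 (4 h), then 31.0 and 24.7 (8 h). The libraries of the vectors did not overlap at any time: Rhox10 was the higher until 1 h and the lower from 2 h on. Separation of 2 libraries from 2 at a single time is weak evidence. Its share over all genes is not given, here or for the members below. The log2 fold change of Rhox10 minus Ctrl was 0.55 ± 0.12 (SE) at 0 h (adjusted p = 0.00264), -0.60 ± 0.12 at 2 h (adjusted p = 0.00138) and -1.24 ± 0.13 at 4 h (adjusted p = 2.64e-07). From 0 to 8 h Dusp1 fell by 1.89 in Ctrl and fell by 3.17 in Rhox10, and the difference at 8 h was -0.73 ± 0.13 (adjusted p = 0.000361). The F-test of a changing difference gave an adjusted p of 3.55e-08. The annotated span of Dusp1 overlaps Ergic1. Whether counting used strand is not given in the sources used here, so reads of overlapping genes cannot be told apart.

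Dusp2, a nuclear phosphatase of ERK and p38 known from activated lymphocytes (chromosome 2, 127336159 to 127338376, plus strand), had the largest change of difference among the members. In Ctrl the pair of libraries read 41.3 and 31.7 CPM (0 h), 33.2 and 21.7 (0.5 h), 55.6 and 58.4 (1 h), 101 and 104 (2 h), 109 and 117 (4 h), then 86.1 and 83.6 (8 h). In Rhox10 the pair of libraries read 53.0 and 44.9 CPM (0 h), 47.5 and 43.6 (0.5 h), 59.7 and 75.3 (1 h), 91.4 and 94.3 (2 h), 41.9 and 37.9 (4 h), then 25.5 and 29.2 (8 h). Rhox10 libraries were above Ctrl from 0 to 1 h and below Ctrl from 2 h on, without overlap at any time, and the gap was widest at 4 and 8 h. From 0 to 8 h Dusp2 rose by 1.22 ± 0.16 (log2, SE; adjusted p = 1.93e-05) in Ctrl and fell by 0.84 ± 0.16 in Rhox10 (adjusted p = 0.00144). Rhox10 minus Ctrl was -1.50 ± 0.15 at 4 h (adjusted p = 2.96e-07) and -1.63 ± 0.16 at 8 h (adjusted p = 1.2e-07), and the difference at 0 h, 0.42 ± 0.16, was not called (adjusted p = 0.0877) but was without Ctrl replicate 2 of 0.5 h (adjusted p = 0.00409).

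Dusp5 is a nuclear phosphatase selective for ERK and a known target of serum response factor (chromosome 19, 53529109 to 53542431, plus strand). In Ctrl the pair of libraries read 93.7 and 82.6 CPM (0 h), 84.7 and 81.0 (0.5 h), 122 and 120.5 (1 h), 146 and 152 (2 h), 156 and 159.5 (4 h), then 149 and 144 (8 h). In Rhox10 the pair of libraries read 89.0 and 82.2 CPM (0 h), 99.6 and 90.0 (0.5 h), 139.5 and 137 (1 h), 186 and 180.1 (2 h), 118 and 112 (4 h), then 53.3 and 61.04 (8 h). The vectors overlapped at 0 h and both rose; Rhox10 was the higher at 2 h and the lower at 4 and 8 h, without overlap. Rhox10 minus Ctrl was -0.04 ± 0.09 (log2, SE) at 0 h (adjusted p = 0.833), 0.30 ± 0.09 at 2 h (adjusted p = 0.0282), -0.46 ± 0.09 at 4 h (adjusted p = 0.000812) and -1.35 ± 0.09 at 8 h (adjusted p = 3.09e-10). Its F-test had the smallest p of the 10 members (adjusted p = 2.25e-08). An antisense gene, AC137853.2, overlaps Dusp5.

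Dusp4, a nuclear phosphatase of ERK and JNK (chromosome 8, 34807297 to 34819894, plus strand), was lower in abundance and changed less. At 8 h it was at 38.9 and 37.1 CPM in Ctrl and 21.5 and 24.4 CPM in Rhox10, which do not overlap, and Rhox10 minus Ctrl was -0.73 ± 0.16 (log2, SE; adjusted p = 0.00305). This call was lost without Rhox10 replicate 1 of 8 h (-0.62, adjusted p = 0.0707). At 0 h the libraries were at 30.3 and 22.9 CPM in Ctrl and 24.8 and 24.3 CPM in Rhox10, which overlap, and the change of the difference was not called (F-test adjusted p = 0.240; 0.0254 without Ctrl replicate 2 of 0.5 h).

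Dusp6 encodes the cytoplasmic phosphatase selective for ERK and a widely used readout of FGF signalling (chromosome 10, 99263231 to 99267489, plus strand). In Ctrl the pair of libraries read 343 and 331 CPM (0 h), 374 and 132 (0.5 h), 453 and 431 (1 h), 492 and 532 (2 h), 488 and 472 (4 h), then 368 and 370.5 (8 h). In Rhox10 the pair of libraries read 358 and 356 CPM (0 h), 365 and 388 (0.5 h), 374 and 362 (1 h), 485 and 462 (2 h), 344 and 331 (4 h), then 316 and 307 (8 h). Both vectors had their highest mean at 2 h, and from 1 to 8 h both Rhox10 libraries were below both Ctrl libraries. No difference between the vectors at a single time was called, and the change of the difference was not either (F-test adjusted p = 0.404). These tests rest on the Ctrl library that stood apart: without it the F-test gave an adjusted p of 2.41e-09, Rhox10 minus Ctrl was called at 1 h (-0.26, adjusted p = 2.02e-05), at 4 h (-0.51, adjusted p = 9.36e-14) and at 8 h (-0.24 ± 0.05 SE, adjusted p = 6.44e-05), but not at 0.5 h (0.007 against 0.57 with it).

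Among the Sprouty genes Spry2 changed with the fusion (chromosome 14, 105891947 to 105896819, minus strand); its protein binds GRB2 and restrains FGF signalling. In Ctrl the pair of libraries read 80.2 and 69.8 CPM (0 h), 85.4 and 63.2 (0.5 h), 108 and 105 (1 h), 107 and 111 (2 h), 105 and 96.0 (4 h), then 106 and 100.5 (8 h). In Rhox10 the pair of libraries read 99.8 and 93.4 CPM (0 h), 96.8 and 101 (0.5 h), 134 and 113 (1 h), 157 and 151 (2 h), 129 and 116 (4 h), then 58.6 and 53.8 (8 h). Rhox10 was above Ctrl in every library from 0 to 4 h and below it in every library at 8 h. Rhox10 minus Ctrl was 0.37 ± 0.12 (log2, SE) at 0 h (adjusted p = 0.0455), 0.50 ± 0.11 at 2 h (adjusted p = 0.00555) and -0.88 ± 0.12 at 8 h (adjusted p = 1.27e-05), and the F-test gave an adjusted p of 5.50e-05. Of the 24 libraries left out in turn, 20 each ended the call at 0 h (adjusted p = 0.0568 to 0.342), so that call is at the edge of the threshold. At 0.5 h the difference of 0.41 (adjusted p = 0.0190) was 0.21 without Ctrl replicate 2 (adjusted p = 0.238). Averaged over 0.5 to 8 h, where its signs cancel, Spry2 was at 0.11 ± 0.05 (adjusted p = 0.111).

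Spry1, which restrains RET signalling in kidney development (chromosome 3, 37639947 to 37644598, plus strand), was lower with the fusion on average, by -0.39 ± 0.11 (log2, SE; adjusted p = 0.00924). It was at 54.5 and 45.6 CPM in Ctrl and 38.4 and 38.6 CPM in Rhox10 at 0 h, and at 43.1 and 39.7 against 29.9 and 23.8 CPM at 8 h. The vectors did not overlap at either time, which with 2 libraries each is weak evidence. The difference was -0.38 at 0 h (adjusted p = 0.399; 0.0325 without Ctrl replicate 2 of 0.5 h), and its change over time was not called (F-test adjusted p = 0.969; 0.360 without that library). At 8 h the difference of -0.63 ± 0.26 was not called (adjusted p = 0.107) but was without that library (adjusted p = 0.000239). Spry4, a further inhibitor of receptor tyrosine kinase signalling (chromosome 18, 38586247 to 38601415, minus strand), ranged from 23.7 to 64.8 CPM in Ctrl and 36.8 to 55.5 CPM in Rhox10, and at 8 h was at 56.2 and 47.0 against 36.8 and 43.6 CPM (log2 -0.36 ± 0.20, adjusted p = 0.260; 0.0294 without that library). Genes overlap Spry1 (Gm42922) and Spry4 (Gm27369 and Gm27804).

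With all libraries, the SPRED genes, whose products bind neurofibromin, were not called in these tests between the vectors. Without Ctrl replicate 2 of 0.5 h, Spred1 was called higher with the fusion at 4 h (log2 0.19, adjusted p = 0.0153; 0.272 with it) and Spred2 at 2 h (0.47, adjusted p = 0.0149; 0.327 with it). Spred1 (chromosome 2, 117121374 to 117182279, plus strand) ranged from 167 to 236 CPM in Ctrl and from 199.6 to 252 CPM in Rhox10, and its change of difference from 0 to 8 h was -0.01 ± 0.14 (log2, SE; adjusted p = 0.988). Spred2 (chromosome 11, 19924375 to 20024026, plus strand) ranged from 12.2 to 36.5 CPM in Ctrl and from 24.1 to 50.0 CPM in Rhox10, with -0.30 ± 0.38 for the same change (adjusted p = 0.806). A miss of the threshold does not show that the vectors were alike.

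**Figure D2:**
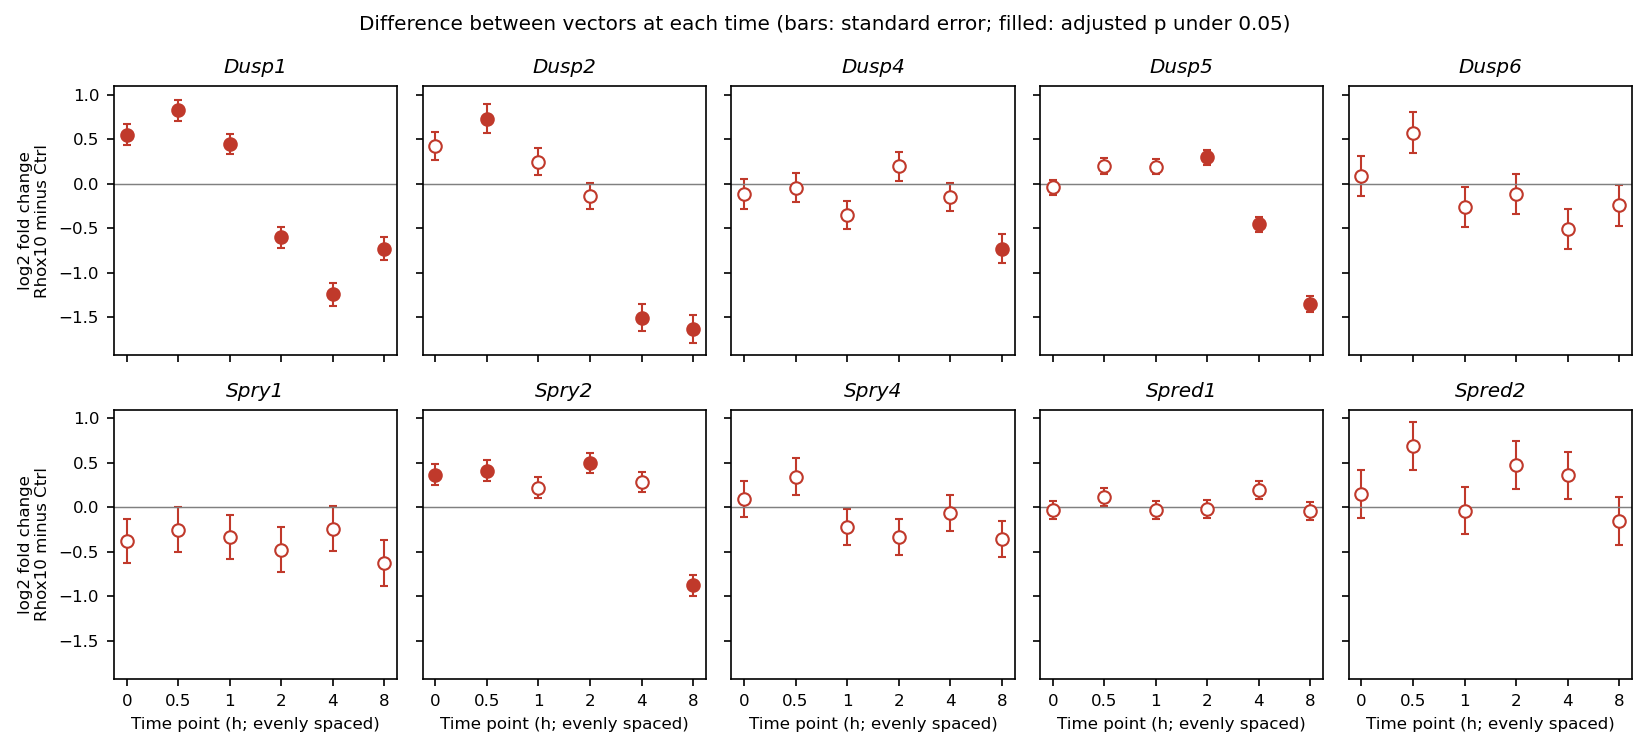
log2 fold change of Rhox10 minus Ctrl (vertical axis) at each time in hours (horizontal axis, evenly spaced) for the 10 members, with standard errors as bars; filled points had an adjusted p under 0.05. Dusp1 starts above 0 and ends at -0.73, Dusp2, Dusp5 and Spry2 cross to -1.63, -1.35 and -0.88 at 8 h, and Spred1 lies near 0 at every time.

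Counted by time, Rhox10 was higher than Ctrl for 2 members at 0 h (Dusp1 and Spry2; 6.56% of all genes were higher), for 3 at 0.5 h (Dusp1, Dusp2 and Spry2; 7.94%), for Dusp1 at 1 h (6.0%) and for Dusp5 and Spry2 at 2 h (6.08%). It was lower for Dusp1 at 2 h (3.94%), for Dusp1, Dusp2 and Dusp5 at 4 h (5.74%), and for 5 members at 8 h (Dusp1, Dusp2, Dusp4, Dusp5 and Spry2; 8.79%). With all libraries, 0 members were called higher at 4 or 8 h by edgeR; at an unadjusted p under 0.05, Spry2 was higher at 4 h and 0 members were at 8 h, where DESeq2 called 0 higher too. Several of these counts moved without Ctrl replicate 2 of 0.5 h. That fit leaves 1 library in a group, and calls over all genes rose in it too at each time other than 0.5 h. The calls gained there are therefore not particular to the members. At 0 h Dusp2 was then also higher and Spry1 lower; at 0.5 h Spry2 was no longer higher and Spry1 was lower; at 1 h Dusp6 was lower. At 2 h Spred2 was also higher, and Spry1 and Spry4 lower. At 4 h Spry2 (0.29, adjusted p = 0.00782) and Spred1 were higher, and Dusp6 was also lower. At 8 h 8 members were lower, the other 3 being Dusp6, Spry1 and Spry4, against 11.8% of all genes, and 0 were higher. Averaged over 0.5 to 8 h, 5 members were lower (Dusp1, Dusp2, Dusp4, Dusp5 and Spry1), against 18.4% of all genes, and Dusp6 and Spry4 were too without that library; leaving out 1 library at a time, 8 of the libraries each ended the call of Dusp4.

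Each vector was also compared with its own 0 h libraries. In Ctrl 5 members changed over time (Dusp1, Dusp2, Dusp5, Dusp6 and Spry2; 5.74% of all genes), and in Rhox10 5 did (Dusp1, Dusp2, Dusp4, Dusp5 and Spry2; 9.44%). At 2 h, 3 members were higher than at 0 h in Ctrl (Dusp2, Dusp5 and Spry2; 1.09%), and in Rhox10 4 were (Dusp2, Dusp4, Dusp5 and Spry2; 2.07%) while Dusp1 was lower (1.14%). At 8 h Dusp2, Dusp5 and Spry2 were higher than at 0 h in Ctrl (3.84%) and Dusp1 lower (2.68%), whereas in Rhox10 these 4 were lower (4.06%). Without Ctrl replicate 2 of 0.5 h, 8 members changed within Ctrl and 9 within Rhox10, where 10.9% and 20.6% of all genes did. At 2 h Dusp6 and Spry4 were then also higher and Dusp1 lower in Ctrl, and Dusp6 was also higher in Rhox10. At 8 h Dusp4 was also higher in Ctrl, and Dusp6 and Spry1 were also lower in Rhox10. Calls over all genes rose at 2 and 8 h in that fit too. Dusp2, Dusp5 and Spry2 thus rose early in cells without the fusion too.

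The other genes of the pathway were taken from lists. Of 19 tested genes in a list of mainly ERK-induced transcription factors, 11 had a difference between the vectors that changed from 0 h, where 2.39% of all genes did. For 10 of these it moved down from 0 to 8 h (1.7% of all genes), with a list median of -0.84 on the log2 scale. The start differed too: at 0 h 10 of the 19 were higher with the fusion (6.56% of all genes) and 2 lower (4.32%), with a median of 0.535. At 8 h 11 were lower (8.79%) and 3 higher (8.06%). From 0 to 8 h 9 fell within Ctrl (2.68%) and 13 within Rhox10 (4.06%). The 4 with the smallest F-test p were Egr1, Fosb, Egr3 and Jun, immediate-early regulators. Egr1 went from a mean of 617 to 202 CPM over 8 h in Ctrl and from 689 to 108 CPM in Rhox10 (change of difference -1.06 ± 0.09 SE, F-test adjusted p = 1.14e-12). Fosb went from 65.5 to 12.5 CPM in Ctrl and from 169 to 4.42 CPM in Rhox10 (-2.86 ± 0.21, adjusted p = 5.27e-10). Egr3 was at 133 and 135 CPM in Ctrl and fell from 93.0 to 32.0 CPM in Rhox10 (-1.56 ± 0.13, adjusted p = 1.35e-09). Jun had higher Rhox10 levels at 0 h, 224 against 90.5 CPM, and 58.5 against 42.5 CPM at 8 h (-0.85 ± 0.14, adjusted p = 2.72e-09).

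Of 18 genes of kinases and adaptors that carry the signal from RAS to ERK, 0 were called in the F-test by edgeR (2 at an unadjusted p under 0.05, and 0 called by DESeq2). Their median change of difference from 0 to 8 h was 0.03; in the single contrast of 8 h against 0 h, the scaffold gene Ksr1 was called higher (0.62 ± 0.17, adjusted p = 0.0464). Of 8 tested DUSP, Sprouty and SPRED genes outside the 10, 0 were called by edgeR (2 at an unadjusted p under 0.05, and 0 by DESeq2), with a median of -0.38 for the same change. Of 13 genes of other receptor and RAS inhibitors 1 was called, Cblb, a ubiquitin ligase for activated receptors, which went from 42.1 to 73.1 CPM over 8 h in Ctrl and from 67.2 to 56.0 CPM in Rhox10 (-1.06 ± 0.17, F-test adjusted p = 0.000236). Of 15 growth factor receptor genes 2 were called: Egfr, at 19.3 and 38.4 CPM at 0 and 8 h in Ctrl and 35.9 and 60.2 CPM in Rhox10 (F-test adjusted p = 2.18e-05), and Igf1r, at 273 and 295 CPM in Ctrl and 285 and 216 CPM in Rhox10 (adjusted p = 0.0284). The Egfr difference moved up from 0 to 4 h (1.22 ± 0.176 SE, edgeR adjusted p = 0.000368). Its change from 0 to 8 h was not called (-0.247 ± 0.175, adjusted p = 0.585).

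**Figure D3:**
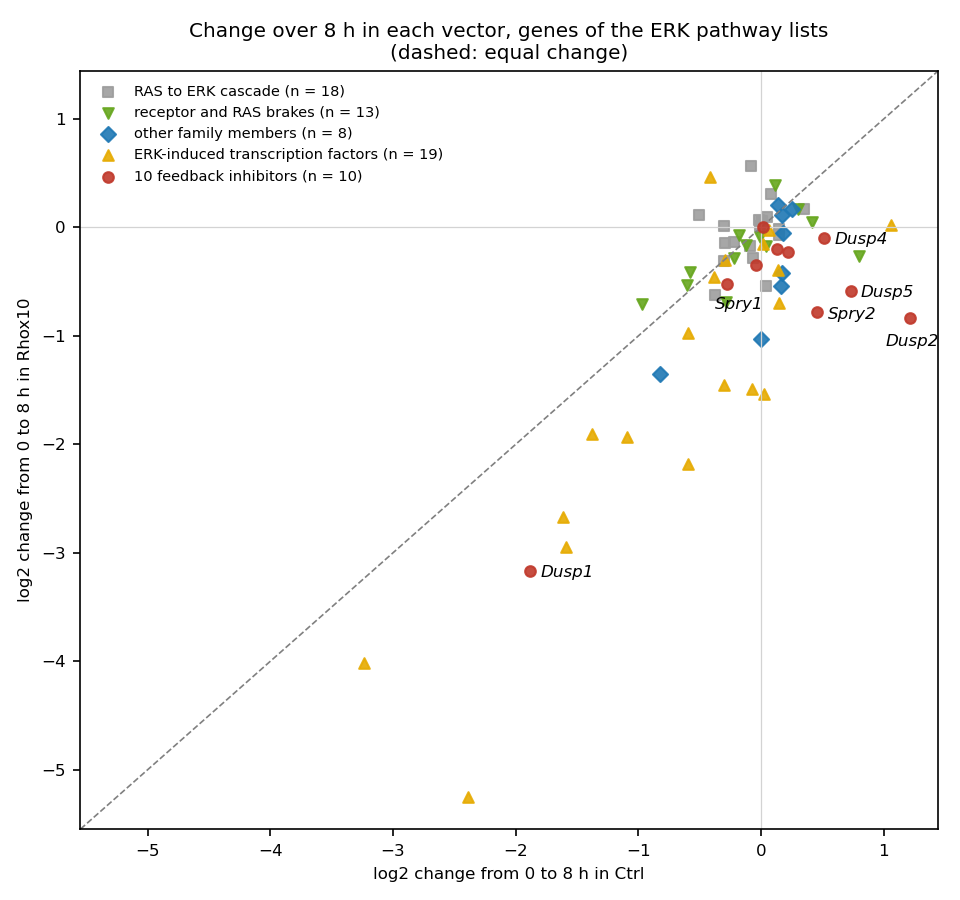
log2 change from 0 to 8 h in Ctrl (horizontal axis) and in Rhox10 (vertical axis), 1 point per gene, for the 10 members and 4 other lists of the pathway; the dashed line marks equal change. Dusp1 lies at -1.89 and -3.17, and Dusp2 at 1.22 and -0.84. In the list of mainly ERK-induced transcription factors 18 of 19 genes lie below the line, against 8 of 18 cascade genes.

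Across the 24 iSLAM-seq libraries, the genes whose log2 CPM most resembled that of Dusp5, the member with the smallest F-test p, were Skil (Pearson r = 0.952), Mbtd1 (0.920), Bach1 (0.915), Egr4 (0.914) and F2rl1 (0.895), among 12060 genes with a mean of at least 5 CPM. The points share vector and time, so these values describe likeness of pattern only. Skil had means of 188 and 241 CPM at 0 and 8 h in Ctrl and 186 and 157 CPM in Rhox10.

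In the testis cells sorted for OCT4-eGFP the RNA-seq levels were ordered per kilobase of exon, since that allows comparison between genes. The wild-type libraries also held markers of other cells. Sertoli markers (6 genes) summed to 396 to 448 CPM, peritubular and stromal markers (6 genes) to 288 to 315, and germ cell markers (8 genes) to 199 to 204. The order therefore describes the sorted fraction and not germ cells alone. In wild-type, Dusp6 was highest at 13.99 ± 1.03 CPM per kb (SD, n = 4), followed by Dusp1 at 8.34 ± 0.59, Dusp5 at 4.64 ± 0.61, Spred1 at 3.68 ± 0.3 and Spred2 at 2.94 ± 0.33. Spry4 (2.41 ± 0.22), Spry1 (2.195 ± 0.449) and Spry2 (1.79 ± 0.17) came next, with Dusp4 at 0.739 ± 0.3 and Dusp2 lowest at 0.393 ± 0.087. In this order Spry4 and Spry1, and Spry1 and Spry2, differed by less than the SD of Spry1, and the other neighbours differed by more than the larger of their SDs. Dusp2 had 2 to 10 counts per library and did not pass the count filter, so 9 members were tested.

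In the libraries labelled null, Dusp5 and Dusp6 were lower and Dusp4 was higher, 3 of 9 tested members where 37.5% of 13538 genes were called (18.6% higher and 18.9% lower), a share near the background. With library totals 6 were called higher and 1 lower, and 7858 of all genes were called, against 5071 with TMM scaling. With scaling to germline genes 8 were called, all of them higher, and 11933 of all genes were called. Calls thus rose over all genes, and these counts are not a result about the members. Dusp5 was at 13.7, 11.04, 10.3 and 10.85 CPM in wild-type and 6.88, 6.75, 8.41 and 7.13 CPM in null, without overlap, a log2 fold change of -0.65 ± 0.12 (SE; edgeR adjusted p = 4.31e-05). Dusp6 was at 48.3, 40.6, 42.9 and 43.4 CPM in wild-type and 33.4, 35.0, 34.5 and 35.0 CPM in null, also without overlap, a log2 fold change of -0.35 ± 0.06 (adjusted p = 1.51e-05). Both directions depend on the scaling: Dusp5 was at -0.31 and Dusp6 at -0.00043 with library totals, and both were above 0 (0.17 and 0.48) when libraries were scaled to germline genes. The median of all genes moved by 0.347 and 0.823 under these scalings. It moved by -0.004 with DESeq2 size factors and by -0.002 without genes above 1% of any library. Library totals include Gm42418, at 51.0% to 59.4% of counts. Of 19 tested genes in the germline set, 17 were called lower in null with TMM scaling. A scaling moves all genes by nearly the same amount, so the place of a member relative to that median cannot decide its direction.

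Dusp4 was at 2.11, 1.69, 1.19 and 3.12 CPM in wild-type and 3.60, 4.50, 2.88 and 3.10 CPM in null (log2 0.75 ± 0.24 SE, adjusted p = 0.0136); the genotypes overlapped, DESeq2 gave an adjusted p of 0.0554, and leaving out wild-type replicate 2, wild-type replicate 3 or null replicate 2 ended the call. Dusp1 (27.6 ± 1.94 and 30.0 ± 1.65 CPM in wild-type and null, SD, n = 4), Spry1, Spry2, Spry4, Spred1 and Spred2 were not called, with log2 fold changes between -0.20 and 0.38. Spry2 did not overlap, at 3.39 to 4.24 CPM in wild-type and 4.37 to 5.83 in null (log2 0.38 ± 0.18, adjusted p = 0.0868). Dusp2 was at 0.787 ± 0.174 and 0.714 ± 0.382 CPM (SD, n = 4; two-sided exact permutation test, p = 0.8).

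**Figure D4:**
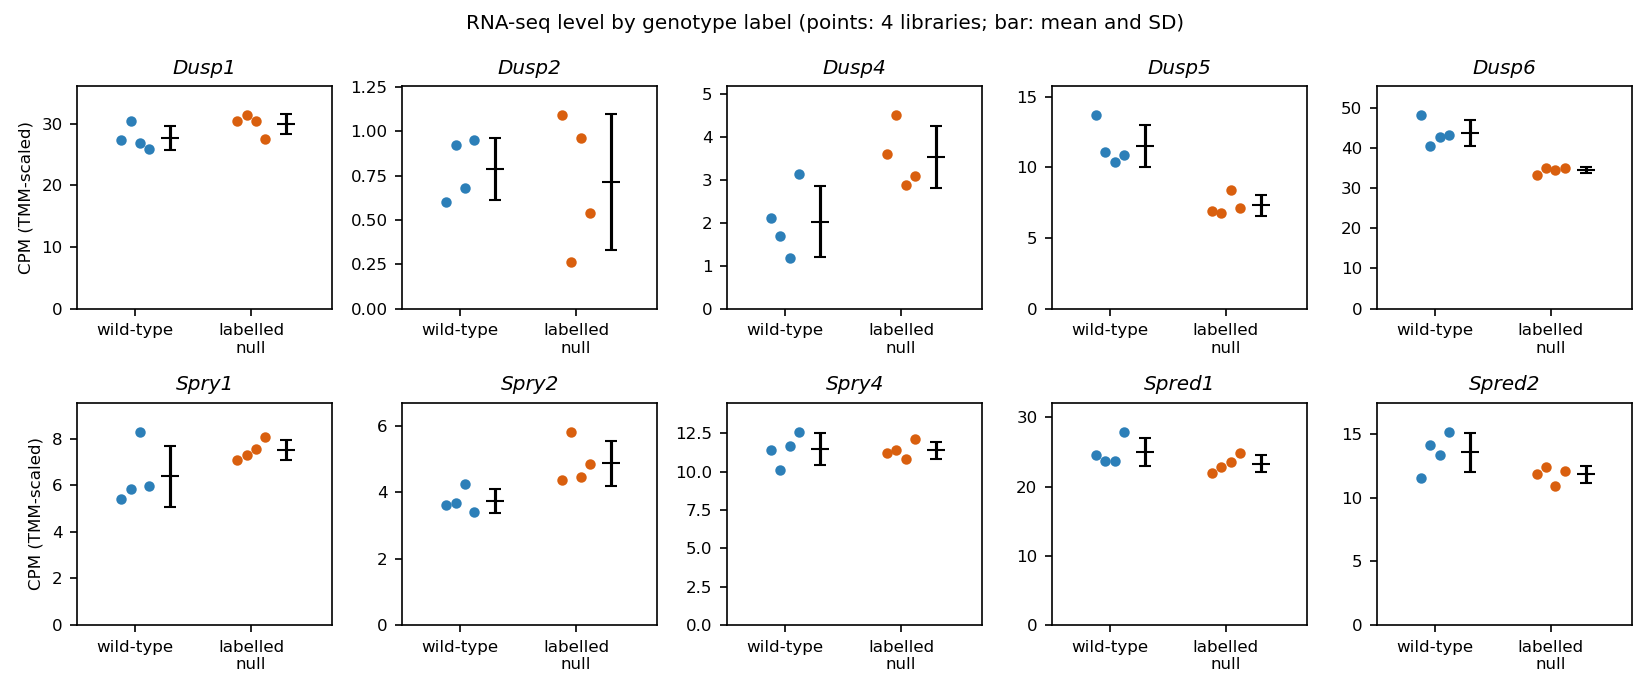
TMM-scaled CPM (vertical axis, from 0) of the 10 members in the 4 wild-type libraries and the 4 labelled null (horizontal axis), with the mean and SD beside the points. The groups do not overlap for Dusp5, Dusp6 and Spry2, and they overlap for the other 7. The share of all genes without overlap is not given here, and 37.5% of the genes tested were called between these groups.

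Summed levels of cell type markers differed between the genotypes. Germ cell markers (8 genes) summed to 199 to 204 CPM of all counts in wild-type and 120 to 133 in null, and 7 of 8 were lower. Peritubular and stromal markers summed to 288 to 315 in wild-type and 594 to 645 in null, Sertoli markers to 396 to 448 and 563 to 599, Leydig markers to 28.6 to 30.1 and 49.4 to 59.5, endothelial markers to 21.1 to 26.1 and 39.5 to 45.5, macrophage markers to 9.39 to 10.5 and 15.3 to 18.2, and erythroid markers to 1.21 to 3.48 and 84.9 to 96.6. These sums use raw totals, a scaling that moves the median of all genes by 0.347 towards the libraries labelled null. Under TMM scaling, 6 of 6 stromal, 4 of 4 tested Leydig, 3 of 4 endothelial and 6 of 6 erythroid markers were called higher. Of 6 Sertoli markers Amh was higher and Cldn11 lower (median log2 -0.03), and of 4 macrophage markers Cd68 was higher. Their part in the values of Dusp4, Dusp5 and Dusp6 was not tested.

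In RNA-seq the receptors for GDNF were among the most changed genes of the lists: Ret fell from 44.0 to 15.3 CPM (log2 -1.52, adjusted p = 5.32e-22) and its co-receptor Gfra1 from 29.2 to 9.84 CPM (-1.57, adjusted p = 4.73e-19), while the mesenchymal receptor Pdgfra rose from 44.7 to 80.9 CPM (0.86, adjusted p = 6.89e-17); 11 of 14 tested receptors were called, 7 higher and 4 lower, where 37.5% of all genes were called. Of 19 tested genes in the list of mainly ERK-induced transcription factors 12 were called, 9 higher and 3 lower. Fosb rose from 334 to 474 CPM (0.51, adjusted p = 2.55e-13), and Egr4 fell from 15.0 to 4.92 CPM (-1.61, adjusted p = 5.74e-13) as did Etv4 from 13.7 to 4.44 CPM (-1.60, adjusted p = 8.02e-13). Among the related family members Dusp9, a phosphatase of ERK, fell from 8.40 to 3.55 CPM (-1.24, adjusted p = 6.19e-08), and Spred3 and Dusp8 rose by 1.14 (adjusted p = 5.90e-05) and 0.70 (adjusted p = 0.00184). Among the inhibitors of receptors and RAS, Socs3 and Nf1 rose by 0.72 (adjusted p = 1.88e-09) and 0.19 (adjusted p = 0.00552) and Rasa2 fell by 0.37 (adjusted p = 0.00136). Of the cascade, the kinase genes Braf and Araf rose by 0.43 and 0.39 (adjusted p = 8.48e-06 and 0.000905). All these values use TMM scaling. Library totals and scaling to germline genes moved the median of all genes by 0.347 and 0.823, so the direction of a small change such as that of Rasa2 depends on the scaling. Gfra1 is also 1 of the 8 germ cell markers and Pdgfra 1 of the 6 stromal markers, so they repeat part of the marker values above.

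The deposited RHOX10 peak table holds 5147 peaks, and 3 members had a peak within 3 kb of a start site by the authors' annotation: Dusp1, Spred1 and Dusp6. Of all genes tested in iSLAM-seq 19.8% had one, and of those tested in RNA-seq 27.3%. The Dusp1 peak (chr17:26508320-26509001, GRCm38) was annotated as promoter, at -188 bases from the start site (negative is upstream), with the authors' score of 251.7, rank 1210 of 5147. The Spred1 peak (chr2:117120335-117120917) was annotated as promoter, at -445 bases by the authors' start site, with a score of 121.2 and rank 2672. The Dusp6 peak (chr10:99262948-99263817) was annotated to the 5′ untranslated region, 151 bases downstream of the start site, with a score of 113.6 and rank 2817. Dusp1 was the 1 member whose peak scored at or above the median score of 127.5. A further peak, intergenic and at -28850 bases from Dusp2 (chr2:127307000-127307619), had a score of 35.3 and rank 4833. Dusp4, Dusp5, Spry1, Spry2, Spry4 and Spred2 had no annotated peak, and for Dusp5 and Spry2 the nearest peak of any gene lay 198907 and 637850 bases from a start site. So of the 4 members whose difference between vectors changed over time, Dusp1 had a peak at its start site and Dusp2, Dusp5 and Spry2 had none; the table has no replicate values, and no test was made.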

How the data were processed

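RNA-seq and iSLAM-seq were deposited by the authors as raw counts per gene, with a column for each library, per the file headers. The submitters' processing notes name STAR 2.5.2b, featureCounts of Subread and DESeq2 with GRCm38 for RNA-seq, limma 3.42.2 with mm10 for iSLAM-seq, and Bowtie2 2.2.5, SAMtools and HOMER with mm10 for CUT&Tag. The aligner and counter of iSLAM-seq are not given in the sources used here. The deposited peak table gives a score per merged peak, the distance to the nearest start site in bases (a signed value) and, in every row, the same 3 RHOX10 libraries, per the file headers. Control libraries were not used here. Of 55536 identifiers 55450 matched GENCODE M21 symbols. The tables had 0 further sample columns.

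Counts were tested over all genes in edgeR 4.0.16 (R 4.3.3, limma 3.58.1) by its quasi-likelihood method, with TMM scaling, filterByExpr and Benjamini-Hochberg adjustment (under 0.05). RNA-seq was fitted by genotype, iSLAM-seq by 12 group means over 24 libraries. Standard errors are the absolute log2 fold change over the square root of F. CPM used TMM-scaled totals; marker sums in RNA-seq and iSLAM-seq used raw totals. Alternatives were DESeq2 1.42.0, other scalings and filters, a replicate block, fewer libraries and other peak rules. Leaving out a library of a pair assumes that the lone one varies like the other groups. The exact permutation tests used SciPy 1.17.1.

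The members and gene lists were chosen with earlier results of these data known. Named genes are the 10 members, Rhox10, up to 4 called genes per list of smallest F-test p and up to 3 of smallest RNA-seq p, and the 5 genes most like the member of smallest F-test p; Ksr1 was named after its value was seen. A gene that this rule names is not reported here. Replicate numbers recur across groups in the titles. On simulated counts with 200 genes changed by 1.5 (log2), the RNA-seq test recovered 197 with 12 false calls among 13438 genes. Among 19117 genes the iSLAM-seq test at 8 h recovered 183 with 10 false calls, and the F-test of change from 0 h recovered 163 with 5. The simulation gave all genes the same spread, changed only well-counted genes, by a constant amount after 0 h in iSLAM-seq, and had no outlying library. These rates do not carry over to low counts, to changes that reverse or to the library that stood apart. Promoter windows were read from GRCm38; RefSeq windows were found for 8 of the 10 members and 8 were identical to that genome.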

Additional observations from a re-analysis of the deposited data

Results flagged for a closer look

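The change from 0 h differed between Rhox10 and Ctrl for 4 members by the F-test of the difference itself (edgeR quasi-likelihood, Benjamini-Hochberg adjusted): Dusp1 (adjusted p = 3.55e-08), Dusp2 (adjusted p = 8.82e-08), Dusp5 (adjusted p = 2.25e-08) and Spry2 (adjusted p = 5.50e-05). These 4 were called in each of 31 settings, with highest adjusted p-values of 3.05e-07, 1.06e-06, 1.48e-06 and 0.00340. In the values of the members, no single library stood apart among the 20 RNA-seq groups of 4 examined (10 members by 2 genotypes), where chance flags about 1. Over all genes, replicate 4 differed most. Pairs with null replicate 4 had a chi-square of 4.02 to 4.49 per degree of freedom, against 1.37 to 1.54 in the other null pairs. Pairs with wild-type replicate 4 had 1.72 to 2.71, against 1.22 to 1.63 in the other wild-type pairs.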

How the results depend on the processing

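In RNA-seq 3 members were called, with 2 to 4 on leaving out 1 library, 0 when a fold limit (log2 of 1, either direction) was added, 7 (6 higher) with library totals and 8 (all higher) with scaling to germline genes. Under library totals Spry4, Spred1 and Spred2 turned to 0.33, 0.24 and 0.15, and under germline scaling Dusp5, Dusp6, Spry4, Spred1 and Spred2 turned to 0.17, 0.48, 0.81, 0.72 and 0.62; Spry4 ranged from -0.0791 to 0.0291 on leaving out 1 library, the highest without wild-type replicate 4. All-gene calls were 5071, against 7858, 11933 and 446 under library totals, germline scaling and the fold limit.

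In iSLAM-seq, the averaged difference called 5 members, 4 to 9 without 1 library and 0 with the fold limit. At 0 h it called 2, 1 to 4 without 1 library, 1 with library totals and 4 without the 0.5 h libraries; at 8 h 5, 4 to 8 without 1 library, 8 without the 0.5 h libraries and 8 with the 8 h libraries alone. The change of the difference called 4 (4 to 10 without 1 library), change within Ctrl 5 (4 to 10; 8 with no filter) and change within Rhox10 5 (4 to 9; 9 without the 0.5 h libraries). The highest counts came without Ctrl replicate 1 of 0.5 h, which leaves that group to the library that stood apart; Without 1 library the averaged difference ranged from -0.225 to 0.0817 for Dusp6 and from -0.000592 to 0.103 for Spred1, with replicates 2 and 1 of that pair left out. At 8 h Spred1 was at 0.0205 with library totals and -0.052 to 0.0158 without 1 library, and Spred2 at -0.381 to 0.0818. The change of Spred1 from 0 h was 0.0616 with library totals, 0.0147 with no filter and -0.056 to 0.081 without 1 library. Over all genes the F-test called 494, against 1496 without the 0.5 h libraries, 1002 with no filter and 746 with DESeq2; the averaged test 7654, against 864 with the fold limit; 0 h 2246, against 3764 without the 0.5 h libraries; 8 h 3477, against 5237 with the 8 h libraries alone; change within Ctrl 1184, against 2189 without the 0.5 h libraries and 2450 with no filter; change within Rhox10 1948, against 4262 without the 0.5 h libraries. The causes were not tested. Members with a peak numbered 3, and 1 with a score at or above the median.

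Over all genes, same-numbered libraries did not deviate together on average (mean correlation -0.001 in RNA-seq and 0.008 in iSLAM-seq). A mean over all genes cannot exclude a shared batch, and replicate 4 differed most in both RNA-seq genotypes. The main fits used no pairing. With the replicate block the counts of members called were 3 in RNA-seq and, in iSLAM-seq, 5 averaged, 2 at 0 h, 5 at 8 h, 4 for the change of the difference and 5 within each vector. Dusp2 in RNA-seq (2 to 10 counts) is limited by depth.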
